A study of Gallus gallus with 50 samples.

Results

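The nuclear genes for the subunits of the mitochondrial respiratory chain and ATP synthase were followed in the small intestine of broiler chickens. They were found by symbol in the array annotation: every probe set with a single symbol of the NDUF, SDH, UQCR, COX (numbers 4 to 8) or ATP5 families was taken, and each gene was read by its probe set with the highest mean over the 50 arrays. This gave 65 genes of 13009 with a symbol, from 117 matching probe sets. Of the 65 genes, 32 belong to complex I, 2 to complex II, 8 to complex III, 9 to complex IV and 14 to complex V, the ATP synthase. NDUFA4 carries a complex I name and is counted in complex IV, where it is known to sit in mammals. ATP5S (coupling factor B) and COX7A2L (a factor of respiratory supercomplexes) match the symbols and are not structural subunits of a single complex in the strict sense.

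Respiratory complexes I to IV pass electrons from NADH and succinate to oxygen and pump protons out of the mitochondrial matrix, except complex II, which pumps none. ATP synthase lets the protons flow back and makes ATP. Absorptive enterocytes carry many mitochondria and spend ATP on pumping sodium, whose gradient drives the uptake of sugars and amino acids. The roles named below are those known from mammals.

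RNA came from scrapings of the jejunum and ileum mucosa of male Cobb 500 broilers on day 10, and was hybridised to the Affymetrix chicken genome array. The LPC low and LPC high feeds held purified lysophosphatidylcholine (LPC), a phospholipid with a single fatty acid chain, at 9.5 and 19 g/T (500 and 1000 g/T of LPC plus carrier). The lysolecithin low and lysolecithin high feeds held lysolecithin, the mixture from which that LPC was purified, at 250 and 500 g/T, so that LPC again came to 9.5 and 19 g/T. The sample titles of the lysolecithin feeds carry the numbers 500 and 1000 in place of these amounts. The control feed had no supplement. Each of the 5 feeds had 5 birds and each of the 25 birds gave a jejunum array and an ileum array, in 3 batches named in the labels, of 8, 9 and 8 birds. How pens were assigned to feeds is not given in the labels, so pen and feed cannot be told apart.

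Values are log2 signals, so a difference of 1 is a 2-fold change, and a gene was called changed at a Benjamini-Hochberg adjusted p under 0.05 over all 38382 probe sets in limma. A probe set's signal depends on its probes, so signals are not compared between genes. In scraped tissue, fewer cells of a type and less RNA per cell cannot be told apart. A score of 15 jejunal minus 15 ileal marker genes, chosen on the other birds, lay on the side of the other segment in 4 arrays: jejunum LPC low bird 4, jejunum control bird 2, ileum LPC low bird 1 and ileum lysolecithin high bird 4. The arrays of LPC low bird 4 did not match each other best, so 5 arrays of 4 birds were in doubt. The medians of the feed comparisons whose groups hold them are given with and without them. Between segments this is done for the average of the subunit genes. Enterocyte markers averaged between 11.3 and 12.6 on every array, and 3 exocrine pancreas markers averaged between 3.85 and 4.31, below the median probe set of 4.65.

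The highest mean signals over the 50 arrays were those of COX4I1 (12.22), ATP5G3 (12.09), ATP5F1AZ (11.91) and COX7C (11.88). The lowest were those of NDUFS5 (3.76), COX7B (3.93), ATP5J (4.01) and ATP5G2 (4.68), the first 3 of which lay below the median probe set. For these dim probe sets the array gives little room to see a difference. In all, 53 of the 65 genes had a mean of at least 8.

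Taken over the birds of all feeds together, the jejunum carried higher respiratory chain signals than the ileum of the same birds. Of the 65 genes, 34 were called higher in the jejunum and 0 lower, where 19.7% of all probe sets were called in either direction, 9.92% were called higher and 9.8% lower. At an unadjusted p under 0.05 in limma, 41 were higher and 2 lower, where 15.5% and 16.3% of all probe sets were. The differences were small: the 34 called genes were between 1.12-fold and 1.40-fold higher. The median log2 difference over the 65 genes was 0.20, with 59 genes above 0, against a median of -0.01 over all probe sets and 47.4% of them above 0. All 34 called genes had a positive mean difference in each of the 3 batches. The genes were called on these same birds, so the signs by batch are no separate support. All 34 were also called without the 4 birds in doubt. That fit called 46 subunit genes, all higher, where 23.6% of all probe sets were called in either direction. Each of these 4 birds has an array that the segment marker score put on the side of the other segment. Leaving them out therefore gives no independent support for the segment difference. Over all birds the median was 0.18 in batch 1, 0.31 in batch 2 and 0.08 in batch 3.

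Complex I, which takes electrons from NADH, had 21 of its 32 genes called higher, and all 32 had a positive difference. Of its 6 core subunits present here 4 were called, and of its 26 accessory subunits 17. NDUFS6, an accessory subunit that binds zinc, ranged from 9.34 to 10.86 in the jejunum (median 10.19) and from 9.07 to 10.30 in the ileum (median 9.69). The ranges overlapped, and NDUFS6 was higher in the jejunum in 20 of 25 birds, by 0.48 ± 0.09 log2 (SE, adjusted p = 0.00033). NDUFA10, an accessory subunit, averaged 9.28 ± 0.51 in the jejunum and 8.80 ± 0.47 in the ileum (SD, n = 25 each), a difference of 0.48 ± 0.12 (SE, adjusted p = 0.0058 in limma). Its spread between birds was the widest of the complex in both segments.

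Among the core subunits, NDUFS7 and NDUFS8 were the 2 that were not called (adjusted p = 0.088 and 0.091). NDUFS1, the iron-sulfur subunit of the NADH-oxidising arm, ranged from 9.25 to 10.37 in the jejunum (median 9.76) and from 8.69 to 10.09 in the ileum (median 9.40). It was higher in the jejunum in 22 of 25 birds, by 0.44 ± 0.07 (SE, adjusted p = 6.7e-05). NDUFV1, which holds the flavin that accepts electrons from NADH, was higher by 0.34 ± 0.10 (SE, adjusted p = 0.018). NDUFA9, an accessory subunit of the matrix arm, was higher by 0.36 ± 0.07 (SE, adjusted p = 0.00027).

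Both complex II genes read here had bright probe sets and gave unlike results. SDHD, a membrane anchor of succinate dehydrogenase, ranged from 10.39 to 11.65 in the jejunum (median 11.06) and from 10.14 to 11.34 in the ileum (median 10.59). It was higher in the jejunum in 21 of 25 birds, by 0.41 ± 0.08 (SE, adjusted p = 0.0003). SDHA, the catalytic flavoprotein that complex II shares with the citric acid cycle, averaged 10.94 in both segments, and the difference was 0.00 ± 0.04 (SE, adjusted p = 0.99).

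In complex III, which passes electrons from ubiquinol to cytochrome c, 3 of 8 genes were called and all 8 differences were positive. UQCRC2, a core protein, ranged from 9.60 to 10.79 in the jejunum (median 10.22) and from 9.43 to 10.53 in the ileum (median 9.84), and was higher in the jejunum in 23 of 25 birds. Its difference was 0.35 ± 0.07 (SE, adjusted p = 0.00092), beside 0.38 ± 0.07 for the core protein UQCRC1 (SE, adjusted p = 0.00032). UQCRFS1, the Rieske iron-sulfur protein, was higher by 0.30 ± 0.07 (SE, adjusted p = 0.0032). The 5 genes that were not called are small accessory subunits and the hinge-type UQCRHL, with differences between 0.10 and 0.20.

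In complex IV, cytochrome c oxidase, 4 of 9 genes were called. COX6C, a small nuclear-encoded subunit, averaged 11.60 ± 0.28 in the jejunum and 11.29 ± 0.32 in the ileum (SD, n = 25 each), a difference of 0.30 ± 0.08 (SE, adjusted p = 0.0061 in limma). COX7A2L was higher by 0.25 ± 0.07 (SE, adjusted p = 0.0091), and COX7C by 0.17 ± 0.05 (SE, adjusted p = 0.017). COX4I1, the largest nuclear-encoded subunit, was higher by 0.17 ± 0.05 (SE, adjusted p = 0.031), in 18 of 25 birds. Leaving out single birds ended the COX4I1 call in 6 of 25 cases, with an adjusted p of up to 0.057. COX5A averaged 7.19 ± 0.44 in the jejunum and 7.24 ± 0.40 in the ileum (SD, n = 25 each), a difference of -0.04 ± 0.10 (SE, adjusted p = 0.81 in limma).

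In ATP synthase, 5 of 14 genes were called, among them both kinds of subunit that form the catalytic F1 head. ATP5B, the catalytic beta subunit, ranged from 11.14 to 12.33 in the jejunum (median 11.86) and from 10.98 to 11.84 in the ileum (median 11.53). It was higher in the jejunum in 23 of 25 birds, by 0.31 ± 0.07 (SE, adjusted p = 0.0024). ATP5F1AZ, the alpha subunit, was higher by 0.34 ± 0.07 (SE, adjusted p = 0.001). ATP5PB, the b subunit of the peripheral stalk, was higher by 0.32 ± 0.06 (SE, adjusted p = 0.00058). ATP5G3, a gene for the c subunit of the rotating membrane ring, was higher by 0.22 ± 0.06 (SE, adjusted p = 0.0049). The lowest difference of the 65 genes was that of ATP5E, the epsilon subunit of the central stalk, at -0.23 ± 0.09 (SE, adjusted p = 0.082). ATP5E is named for its place at the end of the range, after its values were seen.

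**Figure D1:**
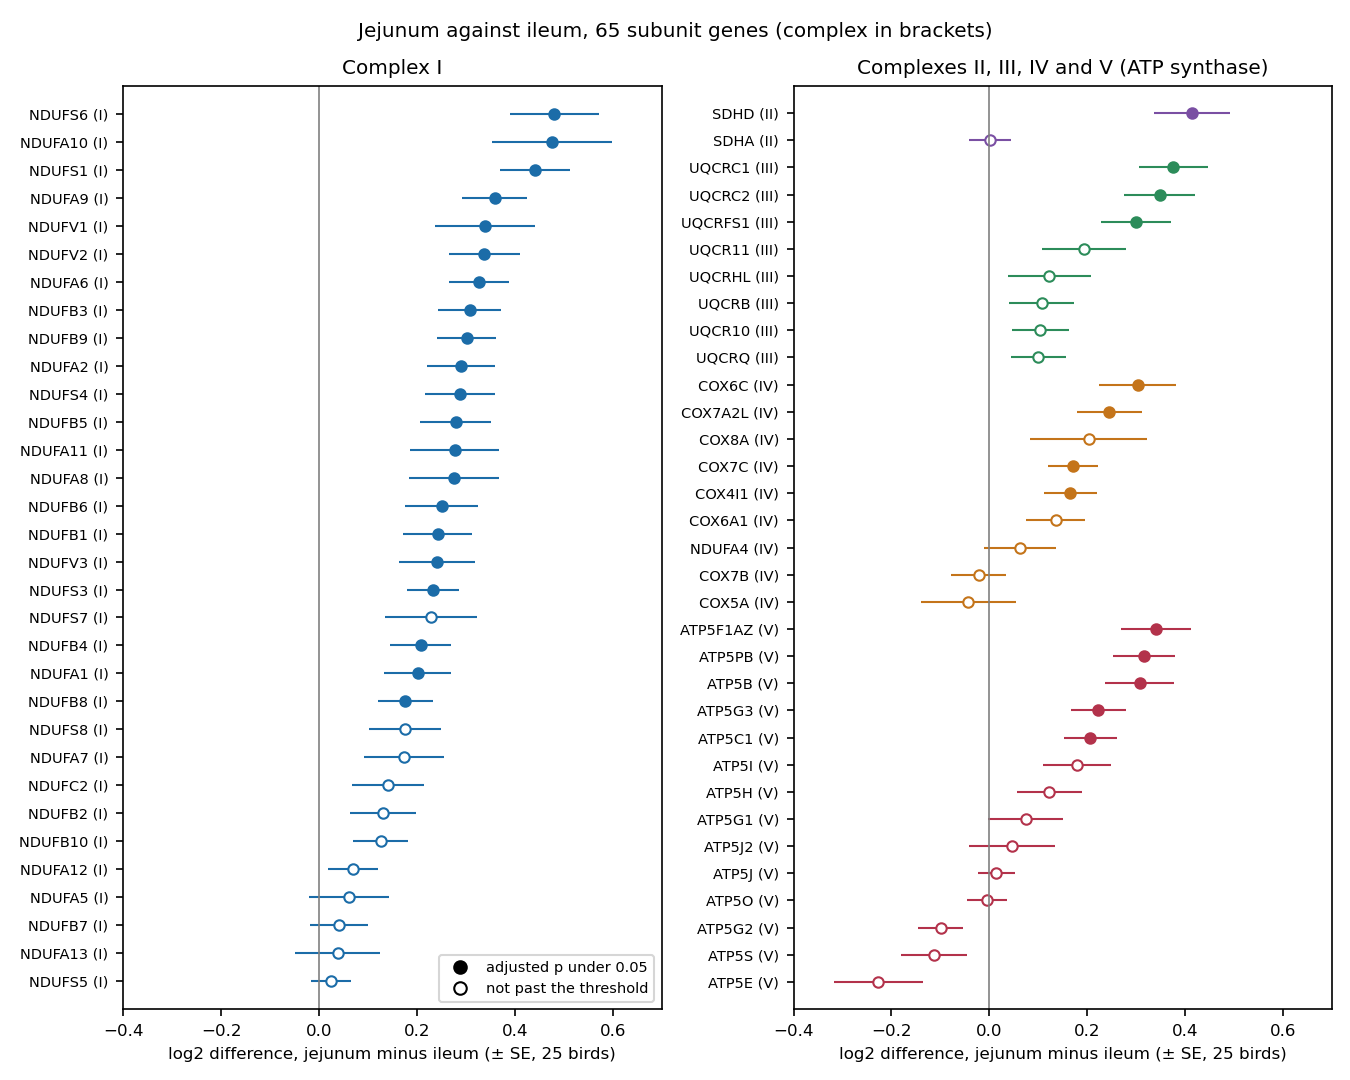
The log2 difference of jejunum minus ileum (x axis, point ± SE, 25 birds) is plotted for each of the 65 genes, with the complex in brackets. Filled points passed an adjusted p of 0.05: all 34 lie right of 0, and the lowest open point is ATP5E at -0.23.

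The calls came mostly from bright probe sets. Of the 53 genes with a mean signal of at least 8, 32 were called, and of the 12 dimmer genes 2. The shares of all probe sets given beside the counts are over probe sets of every signal level. This holds between segments and for the feed, product and level comparisons below. The share called among probe sets as bright as these genes is not given. How far the subunit genes exceed probe sets of like signal therefore cannot be read from these counts. Of the 34 called genes 18 have other probe sets on the array, 29 in all. Of these 29, 7 also passed upward, 1 passed downward and 17 had a positive sign. The downward one is a second probe set for NDUFA2 with a mean signal of 3.64 and a difference of -0.11 ± 0.04 (SE, adjusted p = 0.027), against 0.29 ± 0.07 for the chosen one (SE, adjusted p = 0.0031).

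Averaged over the 65 genes, the signal was higher in the jejunum in 18 of 25 birds, and in 17 of 21 without the birds in doubt. The jejunum minus ileum difference of this average ran from -0.57 to 0.70 with a median of 0.19. Without the birds in doubt it ran from -0.11 to 0.70 with a median of 0.26. Over all 25 birds, the difference was positive in 5 of 5 LPC high birds and 5 of 5 lysolecithin high birds. It was positive in 2 of 5 LPC low birds, 3 of 5 lysolecithin low birds and 3 of 5 control birds. Its median was 0.06 in control birds, where it ran from -0.06 to 0.36. The medians were -0.11 for LPC low, 0.26 for LPC high, 0.08 for lysolecithin low and 0.37 for lysolecithin high. These values include the birds in doubt. Of the single genes, 22 of 65 were higher in the jejunum in at least 20 of 25 birds and 0 were lower in as many, where 5.67% of all probe sets were higher and 5.62% lower.

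**Figure D2:**
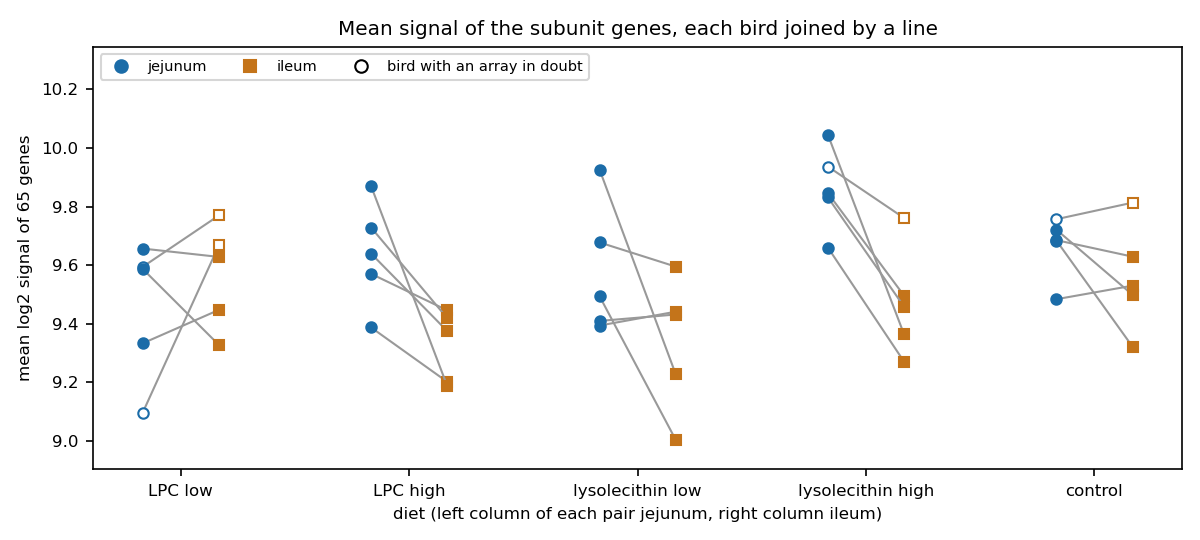
The mean log2 signal of the 65 genes (y axis) is drawn for the jejunum (circles, left) and ileum (squares, right) of each bird, joined by a line, for the 5 diets. Open symbols mark the 4 birds with an array in doubt. Every line falls in the LPC high and lysolecithin high diets, and some lines rise in the other 3 diets.

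Other mitochondrial genes were read from lists of the same pathway. Over all probe sets 9.92% were called higher in the jejunum and 9.8% lower. Of 14 genes for the citric acid cycle and pyruvate dehydrogenase, 11 were called higher in the jejunum and 0 lower, with a median of 0.31. The largest differences were those of fumarase FH (0.98 ± 0.16), the succinyltransferase DLST (0.87 ± 0.12) and malate dehydrogenase MDH2 (0.86 ± 0.11; SE). Of 39 assembly factors, which build the complexes, 13 were called higher and 2 lower (SDHAF1 and COX15), led by COA7 (0.77 ± 0.12), SDHAF3 (0.55 ± 0.11) and COX18 (0.53 ± 0.12; SE).

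Smaller lists gave fewer calls, beside the same shares of 9.92% of all probe sets called higher and 9.8% lower. Of 4 electron carriers and related subunits 2 were higher, ETFDH (0.40 ± 0.08), which feeds electrons from fatty acid oxidation into ubiquinone, and NDUFAB1 (0.35 ± 0.10; SE), the mitochondrial acyl carrier protein. Of 11 ubiquinone synthesis genes 3 were higher and 0 lower, led by COQ3 (0.63 ± 0.15), COQ9 (0.39 ± 0.08) and COQ6 (0.22 ± 0.05; SE). Of 12 outer membrane and import genes 5 were higher and 1 lower, with HSPA9, the matrix chaperone of protein import, at 0.39 ± 0.09 and TOMM22 at 0.24 ± 0.06 (SE). Of 13 genes for mitochondrial gene expression and its regulators, 4 were higher and 1 lower. TFB2M, a mitochondrial transcription factor, differed by 0.41 ± 0.11 and ESRRG, a nuclear receptor that regulates energy metabolism, by -0.40 ± 0.07 (SE).

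Markers of other cell types also differed between segments. Their counts stand beside 9.92% of all probe sets called higher in the jejunum and 9.8% called lower. Of 6 smooth muscle markers 4 were called higher in the jejunum, with a list mean of 4.64 to 7.17 on jejunum arrays and 4.37 to 6.63 on ileum arrays. Of 6 fibroblast markers 2 were called higher, with 5.10 to 8.58 on jejunum arrays and 4.70 to 7.94 on ileum arrays. Of 7 markers of proliferating crypt cells 0 were called in limma, with 5.67 to 8.14 on jejunum arrays and 5.64 to 7.92 on ileum arrays. Of 5 goblet cell markers 3 were called lower in the jejunum, the mucin MUC2 (-0.61 ± 0.19), AGR2 (-0.32 ± 0.09) and CLCA1 (-0.25 ± 0.05; SE), with list means of 9.74 to 11.7 on jejunum arrays and 10.1 to 11.7 on ileum arrays. Of 4 macrophage markers CD74 and CTSS were called lower, by differences of -0.36 ± 0.08 and -0.35 ± 0.05 (SE), with 7.90 to 9.56 on jejunum arrays and 8.4 to 9.16 on ileum arrays. Of 8 enterocyte markers 3 were called higher in the jejunum, the lipoprotein genes APOA4 (1.62 ± 0.16), APOB (0.40 ± 0.05) and MTTP (0.33 ± 0.07; SE). The brush border genes VIL1 (-0.12 ± 0.03) and ANPEP (-0.34 ± 0.05; SE) were called lower, and the enterocyte list mean ran from 11.7 to 12.6 on jejunum arrays and from 11.3 to 12.5 on ileum arrays. The part of these cell types in the segment difference was not tested.

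Each supplemented feed was then compared with the control feed within a segment, to ask whether the additives changed the respiratory chain genes. All these comparisons share the same 5 control birds of a segment. NDUFS4 in the jejunum of lysolecithin high birds was the single call among the 65 genes in the 8 comparisons. In the jejunum the shares of all probe sets called were 0.00261% for LPC low, 0.112% for LPC high, 0.0495% for lysolecithin low and 0.829% for lysolecithin high. In the ileum they were 0.0313%, 0%, 0.875% and 0.216% in the same order of feeds. A count of 0 or 1 among 65 genes is close to what these shares give.

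NDUFS4 is an accessory subunit of complex I that stabilises its NADH-oxidising module. Its log2 signal in the jejunum was 6.73, 6.19, 6.26, 6.49 and 6.70 in lysolecithin high birds, and 5.55, 5.43, 5.88, 5.71 and 5.94 in control birds. The groups did not overlap. The difference was 0.74 ± 0.18 (SE, adjusted p = 0.0498), and it was 1.24 in batch 1, 0.43 in batch 2 and 0.66 in batch 3. Batch 1 holds a single lysolecithin high bird, at 6.73, and batch 3 a single control bird, at 5.94, so these batch values are rough. In LPC high birds, at the same LPC dose, NDUFS4 ran from 5.80 to 6.33 and differed from control by 0.39 ± 0.18 (SE, adjusted p = 0.43).

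The NDUFS4 call sat at the threshold. It was lost in 9 of 10 fits that left out 1 of the 10 jejunum birds compared, with adjusted p between 0.029 and 0.19, and was kept without lysolecithin high bird 2. It was lost without the arrays in doubt (difference 0.69, adjusted p = 0.082) and with the segment marker score as a covariate (0.57, adjusted p = 0.15). The second NDUFS4 probe set, with a mean signal of 3.88, differed by -0.40 (adjusted p = 0.35). In the ileum the chosen probe set was 5.68, 5.71, 5.85, 6.36 and 5.91 in lysolecithin high birds and 5.60, 6.00, 5.83, 5.91 and 5.21 in control birds. There the groups overlapped (0.19 ± 0.18 SE, adjusted p = 0.82). The difference between segments in the lysolecithin high effect was 0.56 ± 0.21 (SE, adjusted p = 0.37).

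**Figure D3:**
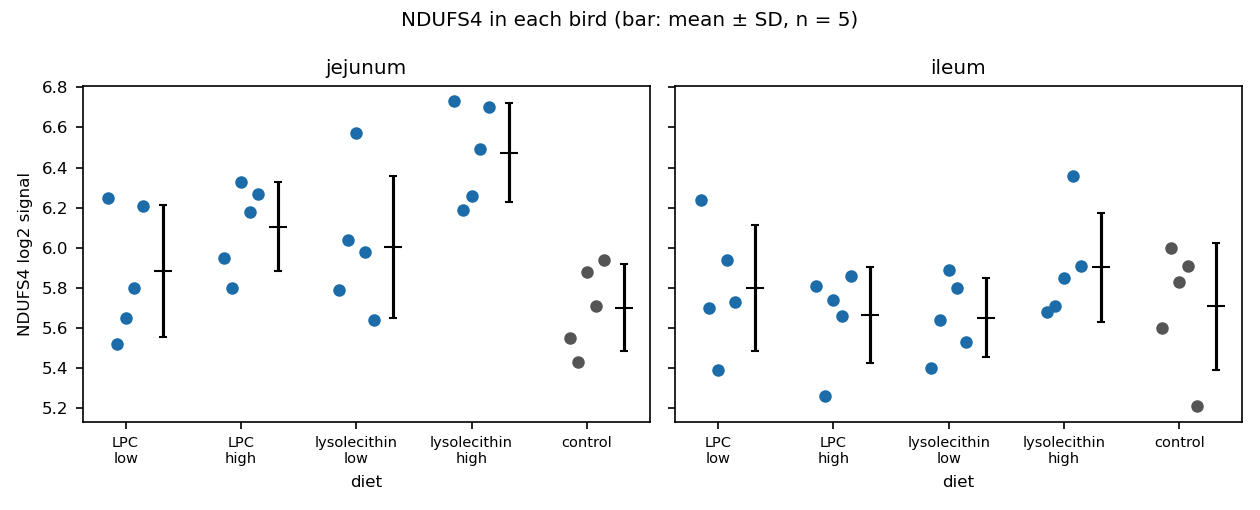
NDUFS4 log2 signal (y axis) is shown for each bird by diet, in the jejunum (left) and ileum (right), with the mean ± SD of 5 birds as a bar. In the jejunum the 5 lysolecithin high birds, at 6.19 to 6.73, lie above the 5 control birds, at 5.43 to 5.94, and in the ileum the groups overlap.

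Most other subunit genes lay above control in jejunum lysolecithin high birds without passing the adjusted threshold. The median of the 65 differences was 0.22, with 55 above 0, against -0.02 over all probe sets and 44.8% of them above 0. At an unadjusted p under 0.05, 13 of 65 were higher and 0 lower, where 8.38% of all probe sets were higher and 9.41% lower. The 13 became 6 without lysolecithin high bird 1, 7 without control bird 1 and 25 without lysolecithin high bird 2, and without the arrays in doubt the median was 0.23. Here and below, counts from fits that left out 1 bird stand without the share of all probe sets in the same fit. Such counts show how far a result rests on single birds, and not whether the subunit genes moved more than others. NDUFA9 was 10.10, 9.39, 10.02, 9.90 and 9.88 in lysolecithin high birds and 8.98, 9.45, 9.30, 9.50 and 9.22 in control birds. All but bird 2 of the lysolecithin high group lay above the control range (0.56 ± 0.16 SE, adjusted p = 0.093). NDUFB1, an accessory subunit, was the other gene with no overlap: its lysolecithin high birds lay between 10.36 and 10.87 and its control birds between 10.17 and 10.33, with a difference of 0.27 ± 0.15 (SE, adjusted p = 0.37). So 2 of 65 genes had all lysolecithin high birds above all control birds, where 1.4% of all probe sets did.

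The score of segment markers and the markers of other cell types differed between the same groups. The score ran from 1.82 to 5.41 in jejunum lysolecithin high birds and from -5.05 to 5.01 in jejunum control birds. Fibroblast markers were higher in lysolecithin high birds by a median of 1.5, with 6 of 6 above 0 and list means of 5.98 to 8.58, against 5.82 to 6.63 in control birds. Smooth muscle markers differed by a median of 0.99, 6 of 6 above 0, with list means of 5.12 to 7.17, against 4.84 to 6.27 in control birds. Proliferating crypt cell markers differed by a median of 0.35, 6 of 7 above 0, with list means of 5.92 to 8.14, against 5.89 to 7.69 in control birds. No marker of these 3 lists was called. An index of RNA integrity, the 5′ minus 3′ signal of control transcripts, ran from -1.07 to -0.30 in lysolecithin high birds. In control birds it ran from -1.17 to -0.82. With the segment score as a covariate the median of the 65 genes was 0.11 and with the crypt cell marker mean 0.18. Both covariates were added after the data were seen. The part of the segment score, RNA integrity or any of these markers in the difference was not tested.

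In jejunum LPC low birds most subunit genes lay below control, and none was called. The median was -0.23, with 8 of 65 above 0 (46.3% of all probe sets), and 14 genes were lower and 0 higher at an unadjusted p under 0.05 in limma, where 4.5% of all probe sets were lower and 4.06% higher. The 14 became 6 without LPC low bird 4, 9 without LPC low bird 2 or control bird 5, and 25 without LPC low bird 5. UQCR11, a small accessory subunit of complex III, was 10.52, 9.99, 10.01, 9.97 and 10.32 in LPC low birds and 10.43, 10.68, 10.82, 10.79 and 10.89 in control birds. A single LPC low bird reached into the control range, and the difference was -0.56 ± 0.15 (SE, adjusted p = 0.31). UQCRHL differed by -0.51 ± 0.17 (SE, adjusted p = 0.40) and NDUFB10, an accessory subunit of complex I, by -0.31 ± 0.11 (SE, adjusted p = 0.40).

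The segment marker score ran from -5.99 to 1.57 in jejunum LPC low birds and from -5.05 to 5.01 in jejunum control birds. The jejunum LPC low and control groups each hold an array in doubt. Without the arrays in doubt the median was -0.11 and 3 genes were lower at an unadjusted p under 0.05 (4.58% of all probe sets). The 5′ minus 3′ signal of control transcripts, an index of RNA integrity, ran from -1.0 to -0.34 in LPC low birds and from -1.17 to -0.82 in control birds. With this index as a covariate the median was -0.16 and 4 genes were lower at that p (2.61% of all probe sets). NDUFA7, UQCR10 and COX5A were the 3 of 65 genes whose LPC low birds all lay below all control birds, where 0.784% of all probe sets did. COX5A was 7.25, 6.79, 6.89, 7.09 and 6.58 in LPC low birds and 7.50, 7.55, 7.29, 7.31 and 8.17 in control birds (-0.63 ± 0.26 SE, adjusted p = 0.52). Proliferating crypt cell markers differed by a median of -0.48, 7 of 7 below 0, with list means of 5.67 to 6.13 in LPC low birds and 5.89 to 7.69 in control birds, and with their mean as a covariate the median of the 65 genes was -0.21. The part of the segment score, of these markers or of RNA integrity in the difference was not tested.

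In jejunum LPC high and lysolecithin low birds the medians of the 65 genes were -0.01 and -0.08. Without the arrays in doubt they were 0.00 and -0.06. Of the 65 genes, 30 and 21 lay above 0, where 44.3% and 49.9% of all probe sets did. The RNA integrity index lay between -0.60 and -0.35 in LPC high birds, above all control birds, and with it as a covariate the LPC high median was 0.11. At an unadjusted p under 0.05 in limma, 2 were higher and 1 lower in LPC high birds (5.25% and 5.64% of all probe sets), and 0 were higher and 2 lower in lysolecithin low birds (4.68% and 4.24%). Without lysolecithin low bird 3, 12 genes were lower in that group and its median was -0.16. Without lysolecithin low bird 5, 0 were lower and 1 was higher. In LPC high birds the genes with the largest statistics were NDUFA9 (0.42 ± 0.16 SE, adjusted p = 0.31), NDUFB7 (-0.33 ± 0.13 SE, adjusted p = 0.34) and NDUFS4. In lysolecithin low birds they were NDUFB7 (-0.36 ± 0.13 SE, adjusted p = 0.38), UQCR10 (-0.27 ± 0.12 SE, adjusted p = 0.50) and NDUFB2 (-0.32 ± 0.15 SE, adjusted p = 0.56). NDUFB7 and NDUFB2 are accessory subunits of the membrane arm of complex I.

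In the ileum the subunit genes lay below control in LPC high and lysolecithin low birds, and none was called. In LPC high birds the median was -0.25, with 2 of 65 above 0 (52.4% of all probe sets), and 25 genes were lower and 0 higher at an unadjusted p under 0.05 in limma, where 5.42% of all probe sets were lower and 4.55% higher. The RNA integrity index ran from -0.63 to -0.44 in LPC high birds and from -1.04 to -0.72 in control birds, with no overlap. With it as a covariate the median was -0.20 and 10 genes were lower at that p (4.69% of all probe sets). The 25 became 13 without control bird 2, and 16 without control bird 4 or LPC high bird 2. NDUFB2 was 10.81, 10.40, 10.23, 10.87 and 10.77 in LPC high birds and 11.03, 11.24, 10.78, 11.14 and 11.12 in control birds. Control bird 3 lay inside the LPC high range, and the difference was -0.50 ± 0.14 (SE, adjusted p = 0.27). ATP5B was 11.25, 11.35, 11.02, 11.31 and 11.42 in LPC high birds and 11.53, 11.81, 11.28, 11.75 and 11.84 in control birds. The same control bird overlapped here (-0.43 ± 0.12 SE, adjusted p = 0.27).

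COX6A1, a small subunit of complex IV, differed by -0.40 ± 0.12 in ileum LPC high birds (SE, adjusted p = 0.28). NDUFC2, COX8A and ATP5G3 were the 3 genes whose LPC high birds all lay below all control birds, where 1.14% of all probe sets did. COX8A was 10.24, 10.15, 9.54, 10.02 and 10.13 in LPC high birds and 10.37, 10.67, 10.35, 10.50 and 10.93 in control birds, a difference of -0.58 ± 0.18 (SE, adjusted p = 0.29).

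In ileum lysolecithin low birds the median was -0.23, with 5 of 65 above 0 (54.3% of all probe sets), and 15 genes were lower and 1 higher at an unadjusted p under 0.05, where 7.71% of all probe sets were lower and 6.53% higher. Without lysolecithin low bird 1 the median was -0.11 and 4 genes were lower. The 15 became 8 without control bird 2 or 4, 9 without lysolecithin low bird 3, 24 without lysolecithin low bird 4 and 25 without lysolecithin low bird 2. The RNA integrity index ran from -0.90 to -0.58 in lysolecithin low birds, and with it as a covariate the median was -0.20 and 10 genes were lower (7.81% of all probe sets). NDUFB2 was 10.22, 10.83, 10.50, 10.66 and 10.59 in lysolecithin low birds, below all control birds except that bird 2 passed control bird 3 (-0.50 ± 0.14 SE, adjusted p = 0.074). COX6A1 differed by -0.40 ± 0.12 (SE, adjusted p = 0.090) and NDUFB10 by -0.33 ± 0.11 (SE, adjusted p = 0.14). Without lysolecithin low bird 2, COX8A passed the threshold (adjusted p = 0.033), as the single subunit gene.

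The same ileum groups differed in other markers. Proliferating crypt cell markers differed by a median of -0.61 in LPC high birds, with list means of 5.69 to 6.24, and of -0.29 in lysolecithin low birds, with 5.64 to 6.53, against 5.92 to 7.92 in control birds. Fibroblast markers differed by a median of -1.55 in LPC high birds, with list means of 5.20 to 5.98, and of -1.36 in lysolecithin low birds, with 5.23 to 5.89, against 6.10 to 7.42 in control birds. Enterocyte markers differed the other way, by a median of 0.35 in both comparisons with 6 of 8 above 0, and their list means were 12.0 to 12.2 in LPC high birds and 11.9 to 12.3 in lysolecithin low birds, against 11.3 to 12.1 in control birds. No marker of these 3 lists was called. With the crypt cell marker mean as a covariate the medians of the 65 genes were -0.14 and -0.16, and 7 and 6 genes were lower at an unadjusted p under 0.05 (3.26% and 5.11% of all probe sets). What part any of these markers had in the ileum differences was not tested.

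Ileum LPC low and lysolecithin high birds had medians of 0.01 and -0.10, and -0.09 and -0.16 without the arrays in doubt. The RNA integrity index ran from -1.1 to -0.47 in LPC low birds and from -0.72 to -0.3 in lysolecithin high birds. In control birds it ran from -1.04 to -0.72. At an unadjusted p under 0.05 in limma, 0 were higher and 1 lower in LPC low birds (5.13% and 6.95% of all probe sets), and 0 were higher and 4 lower in lysolecithin high birds (3.8% and 5.16%). In LPC low birds the largest statistics were those of ATP5O, the stalk subunit OSCP (-0.21 ± 0.10 SE, adjusted p = 0.38), ATP5J, a dim peripheral stalk subunit (0.18 ± 0.10 SE, adjusted p = 0.48), and COX5A (-0.39 ± 0.24 SE, adjusted p = 0.55). In lysolecithin high birds they were those of NDUFC2, an accessory subunit of complex I (-0.40 ± 0.14 SE, adjusted p = 0.35), NDUFB7 (-0.36 ± 0.17 SE, adjusted p = 0.54) and NDUFB2 (-0.30 ± 0.14 SE, adjusted p = 0.54).

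The ileum LPC low group holds 2 arrays in doubt, of birds 1 and 4. COX5A was 7.86, 6.18, 6.85, 7.83 and 6.84 in LPC low birds and 7.72, 7.71, 7.07, 7.45 and 7.46 in control birds. The 2 high LPC low values are the arrays in doubt. Without the arrays in doubt COX5A was called lower in LPC low birds (-0.89, adjusted p = 0.013), and so was ATP5E (-0.86, adjusted p = 0.013). In that fit 5.98% of all probe sets were called in either direction.

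**Figure D4:**
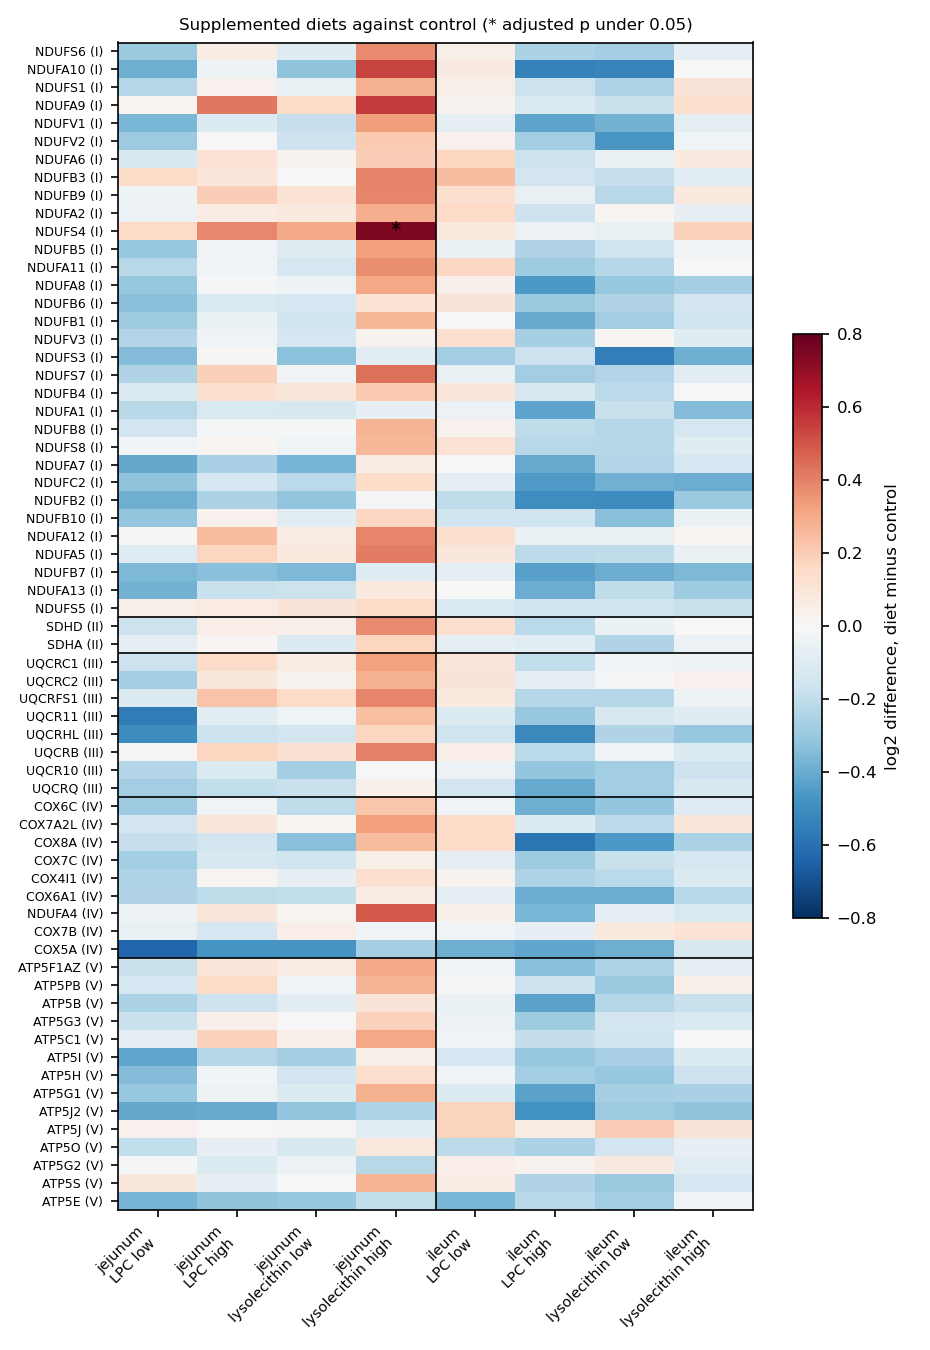
The colour gives the log2 difference of each supplemented diet minus control for the 65 genes (rows, grouped by complex and in the order of the segment difference) in the jejunum (left 4 columns) and ileum (right 4 columns). The star marks NDUFS4 in jejunum lysolecithin high birds. The columns with the most blue are jejunum LPC low, ileum LPC high and ileum lysolecithin low, with medians of -0.23, -0.25 and -0.23, and the jejunum lysolecithin high column is mostly red, with a median of 0.22.

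Lysolecithin was set against purified LPC at matched LPC dose in 4 comparisons, 2 levels in each of 2 segments, and the adjusted p is over all probe sets of each. None of the 65 genes was called in any of them. In the jejunum the shares of all probe sets called were 0% at both levels, and in the ileum 0.0365% at the low level and 0% at the high level. At the high level in the jejunum the median of the 65 genes was 0.23, with 62 above 0 (49.2% of all probe sets), and 4 genes were higher and 0 lower at an unadjusted p under 0.05, where 2.99% of all probe sets were higher and 3.12% lower. In the fit without the arrays in doubt, none of which is in these groups, 10 were higher (3.43% of all probe sets), and leaving out 1 bird gave between 0 and 21. That median was 0.57 in batch 1, -0.12 in batch 2 and 0.19 in batch 3, so its sign was not shared by the batches. Batch 1 holds a single lysolecithin high bird, and batch 2 a single LPC high bird, bird 3. Without LPC high bird 3 the median over all batches was 0.28, with 21 genes higher. NDUFA10 was 9.86, 9.62, 9.56, 10.23 and 10.10 in lysolecithin high birds and 9.18, 8.80, 9.52, 9.32 and 9.53 in LPC high birds. These groups did not overlap, and the difference was 0.58 ± 0.26 (SE, adjusted p = 0.80). It was the 1 of 65 genes with all lysolecithin high birds above all LPC high birds, which 0.409% of all probe sets showed. NDUFB8 (0.28 ± 0.11) and NDUFB5 (0.36 ± 0.16; SE), both accessory subunits of the membrane arm, had the same adjusted p of 0.80.

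At the low level in the jejunum the median was 0.13, and 4 genes were higher and 0 lower at an unadjusted p under 0.05 (2.99% and 2.22% of all probe sets). Without the arrays in doubt the median was 0.05 and 1 gene was higher (2.74% of all probe sets), and without lysolecithin low bird 3 the median was 0.04. There UQCR11 (0.52 ± 0.15 SE, adjusted p = 0.77), UQCRHL (0.36 ± 0.17 SE, adjusted p = 0.95) and NDUFB10 (0.22 ± 0.11 SE, adjusted p = 0.95) had the largest statistics. At the low level in the ileum the median was -0.21, and 15 genes were lower and 0 higher at an unadjusted p under 0.05, where 6.17% of all probe sets were lower and 6.39% higher. The LPC low group holds 2 arrays in doubt, and without the arrays in doubt the median was -0.16 with 5 genes lower and 2 higher (8.26% and 8.67% of all probe sets). Without lysolecithin low bird 1 the median was -0.13 with 5 genes lower, and the 15 became 7 without LPC low bird 1, 9 without lysolecithin low bird 5, 23 without lysolecithin low bird 4 and 27 without lysolecithin low bird 2. COX8A was 9.66, 10.81, 9.87, 10.17 and 10.02 in lysolecithin low birds and 10.57, 10.73, 10.87, 10.62 and 10.90 in LPC low birds. Lysolecithin low bird 2 was the single bird of its group inside the LPC low range. The difference was -0.61 ± 0.18 (SE, adjusted p = 0.15), and without that bird it was -0.78 (adjusted p = 0.016). NDUFV2 (-0.50 ± 0.17 SE, adjusted p = 0.20) and COX6A1 (-0.33 ± 0.12 SE, adjusted p = 0.23) followed. In this comparison 1 of 65 genes had all lysolecithin low birds below all LPC low birds, where 0.696% of all probe sets did. At the high level in the ileum the median was 0.17, with 1 gene higher and 0 lower at an unadjusted p under 0.05 (1.54% and 1.94% of all probe sets), and the median was 0.10 without the arrays in doubt. There NDUFA10 (0.54 ± 0.24), ATP5B (0.25 ± 0.12) and NDUFA6 (0.25 ± 0.12; SE) had an adjusted p of 1.00.

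These comparisons bound the differences without showing that the products act alike. The 95% interval of lysolecithin minus LPC lay within 2-fold for 64 or 65 of the 65 genes in each of the 4 comparisons. Within 1.5-fold it lay for 51 genes at the low level and 37 at the high level in the jejunum, and for 40 and 52 in the ileum. Against control, the interval lay within 2-fold for between 63 and 65 of the 65 genes in the 8 comparisons.

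The high and low levels were then compared with both products pooled. In the jejunum the median of the 65 genes was 0.26, with 62 above 0, against -0.02 over all probe sets and 42.8% of them above 0. None of the 65 genes was called and 0% of all probe sets were, while 42 of 65 were higher and 0 lower at an unadjusted p under 0.05 in limma, where 7.56% of all probe sets were higher and 7.2% lower. These shares are over probe sets of every signal level, and most subunit genes have bright probe sets. By complex, 20 of 32, 2 of 2, 7 of 8, 5 of 9 and 8 of 14 genes of complexes I to V were higher at that p. With diet and batch removed, the 65 genes had a mean pair correlation of 0.56 between birds in the jejunum. Counts of genes at an unadjusted p, in every comparison, are therefore not counts of independent results. NDUFB10 ranged from 10.66 to 11.17 in the 10 birds of the high level and from 10.25 to 10.95 in the 10 birds of the low level, a difference of 0.30 ± 0.07 (SE, adjusted p = 0.14). NDUFA9 differed by 0.41 ± 0.11 (SE, adjusted p = 0.16) and NDUFV2, a core iron-sulfur subunit, by 0.33 ± 0.09 (SE, adjusted p = 0.16).

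Other measures of the arrays differed between the same groups. The median of the 65 genes was 0.09 in batch 1, 0.24 in batch 2 and 0.43 in batch 3. Proliferating crypt cell markers differed by a median of 0.58, 7 of 7 above 0, with list means of 5.92 to 8.14 in birds of the high level and 5.67 to 6.13 in birds of the low level. Fibroblast markers differed by a median of 1.60, 5 of 6 above 0, with list means of 5.98 to 8.58 at the high level and 5.10 to 7.57 at the low level. With the segment score as a covariate the median was 0.14 and 9 genes were higher at an unadjusted p under 0.05 (5.48% of all probe sets). With the crypt cell marker mean it was 0.20 with 18 genes higher (4.8% of all probe sets). Without the arrays in doubt it was 0.21 with 25 genes higher (5.97% of all probe sets), and without lysolecithin low bird 5 there were 27. With the RNA integrity index as a covariate, NDUFA10 alone of the 65 genes was called (0.73, adjusted p = 0.045), where 1.38% of all probe sets were. What part any of these measures had in the difference between levels was not tested.

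In the ileum the same comparison gave a median of -0.07, and none of the 65 genes and 0% of all probe sets were called. At an unadjusted p under 0.05, 5 genes were lower and 0 higher, where 6.05% of all probe sets were lower and 5.05% higher. Without the arrays in doubt 2 were higher and 1 was lower, with a median of -0.06, and leaving out 1 bird gave between 1 and 15 lower. The shares of all probe sets in these fits are not given, so the counts show only how they depend on the birds used. The largest statistics were those of ATP5J2, the f subunit of the membrane part of ATP synthase (-0.34 ± 0.13 SE, adjusted p = 0.32), NDUFA1 (-0.27 ± 0.12 SE, adjusted p = 0.39) and NDUFV3 (-0.26 ± 0.12 SE, adjusted p = 0.41), accessory subunits of complex I.

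Tests for any effect of diet in limma called none of the 65 genes. In the jejunum the smallest adjusted p of the moderated F-test was 0.11 (UQCR11), where 0.13% of all probe sets were called, and 27 genes had an unadjusted p under 0.05, where 13.8% of all probe sets did. In the ileum the smallest was 0.13 (COX8A), where 0.138% were called, and 12 genes had an unadjusted p under 0.05, where 14.6% did.

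Whether the effect of diet differed between segments was tested on the jejunum minus ileum value of each bird. None of the 65 genes passed the F-test for this in limma, where 0.00521% of all probe sets were called, and the smallest adjusted p was 0.35, for COX4I1, NDUFC2, UQCRFS1 and NDUFA4. At an unadjusted p under 0.05 there were 30 of 65 genes, where 10.3% of all probe sets passed. Against control, the median difference between segments over the 65 genes was -0.20 for LPC low, 0.25 for LPC high, 0.14 for lysolecithin low and 0.31 for lysolecithin high. Without the birds in doubt these medians were -0.13, 0.19, 0.10 and 0.31.

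The subunit genes varied together between birds. After diet and batch were removed, the mean correlation over the 2080 pairs of genes was 0.56 in the jejunum and 0.46 in the ileum (25 birds each), against 0.007 and 0.005 over pairs of all 13009 genes. Over the 8411 brighter genes the mean was 0.02 and 0.03. These means are signed, so positive and negative pairs offset each other. The arrays in doubt are included. Complex III genes had the highest mean pair correlation of the complexes with more than 2 genes, 0.68 in the jejunum and 0.62 in the ileum, and ATP synthase genes the lowest, 0.44 and 0.34. Complexes I and IV lay between, at 0.62 and 0.46 in the jejunum and 0.52 and 0.39 in the ileum. Genes with a mean signal under 8 were spread unevenly: ATP5E, ATP5G2, ATP5J, ATP5J2 and ATP5S in ATP synthase, and UQCRB alone in complex III. Complex and signal level therefore cannot be told apart in this order. All pairs share the same 25 arrays, RNA quality and cell mixture, so these are descriptions of the birds and carry no test.

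The dim genes followed the rest less closely. Genes with a mean signal of at least 8 had a median correlation with the mean of the other 64 genes of 0.87 in the jejunum (range 0.42 to 0.96) and 0.83 in the ileum (range 0.41 to 0.94). The 12 dimmer genes had 0.35 in the jejunum (range -0.23 to 0.90) and 0.24 in the ileum (range -0.47 to 0.68). Of the bright genes in the jejunum, SDHA had the lowest correlation, 0.42.

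**Figure D5:**
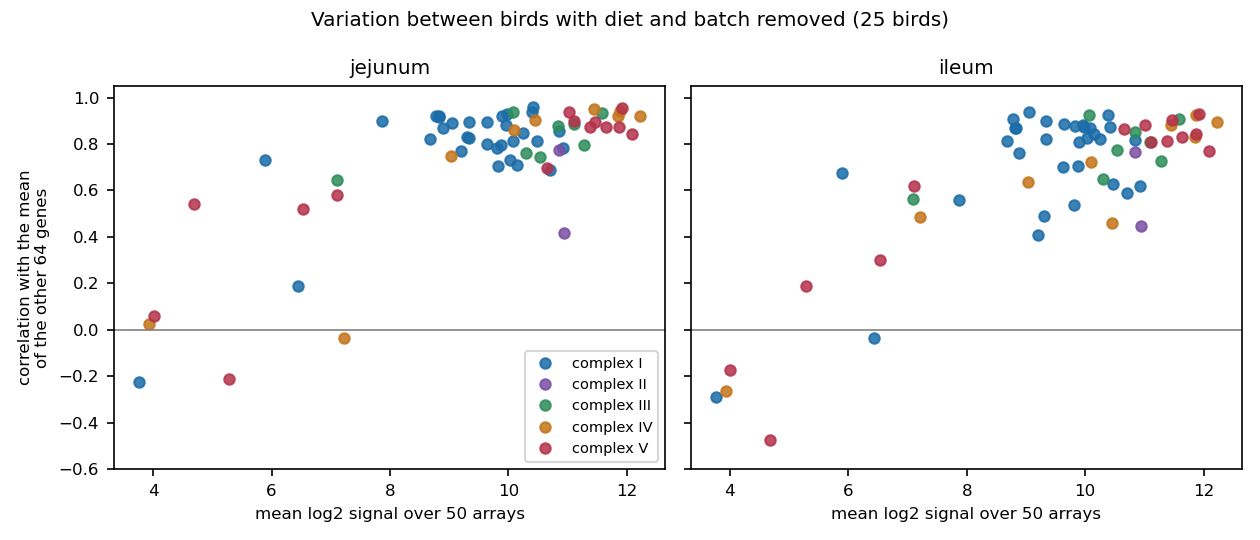
The correlation of each gene with the mean of the other 64 genes over 25 birds, after diet and batch were removed (y axis), is plotted against the gene's mean log2 signal (x axis), for the jejunum (left) and ileum (right), with the complexes in colour. Genes with a signal of at least 8 lie between 0.41 and 0.96, and the dimmer genes spread from -0.47 to 0.90.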

How the data were processed

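Each of the 50 arrays was deposited as log2 signals, 1 value a probe set. The authors made them with RMA, per the submitters' processing notes, which also name limma and give no version. They ran from 1.84 to 13.99 with 2 decimals and nearly equal array medians (4.57 to 4.70), and were used as given. RMA equalises the arrays, so differences are relative to the average transcript. Array number limits precision.

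After 153 control probe sets were left out, 38382 were fitted with limma 3.58.1 in R 4.3.3, with no filter, and adjusted over all of them (Benjamini-Hochberg, 0.05). The jejunum minus ileum fit held the bird as a fixed block, since both arrays of a pair carry the same bird number. Of the 25 birds, 24 matched best to their own other array over 100 probe sets. Feeds were compared within a segment over its 25 arrays with batch as a term. Whether birds of a feed were housed apart is not given, so p-values measure the spread between these birds.

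The annotation gave each member 1 symbol, and 64 of 65 gene IDs were in a current chicken gene table (GRCg7b), used for names only. COX7A2 shares its probe set with another symbol and was left out, and SDHB and SDHC are not analysed here. The members, lists, tests and alternatives were chosen with earlier results of these data known. The text names up to 4 called genes a complex between segments, the calls or the 3 largest statistics a diet or product comparison, the 4 highest and 4 lowest signals, a set of core subunits (NDUFS1, NDUFV1, SDHA, UQCRC1, UQCRFS1, COX4I1, COX5A, ATP5F1AZ, ATP5B), and up to 3 genes a list. The genes whose groups did not overlap against control were added after the values were seen. Alternatives are described at the end. The scripts were tested on simulated data.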

Additional observations from a re-analysis of the deposited data

Results flagged for a closer look

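Dixon's test was run on 107 groups of 5 birds. They cover genes named in the diet, product and level comparisons and the average of the 65 genes. In 7 groups, 6.54% of them, a bird lay far from the other 4. For independent groups chance gives about 1 in 20. These groups share birds and genes that vary together, and some genes were added after their values were seen. The 1 in 20 is therefore no yardstick for the 7. ATP5J, whose probe set is dim, was 4.44 in ileum LPC low bird 4, above the next bird at 4.04, and that array is one of the 5 in doubt. NDUFA1 was 9.43 in ileum LPC high bird 2, below the next bird at 9.90, and NDUFC2 was 9.86 in the same bird, below the next at 10.21. NDUFB1 was 10.87 in jejunum lysolecithin high bird 4, above the next bird at 10.48. NDUFA7 was 9.27 in jejunum control bird 2, above the next bird at 8.94. UQCR10 was 10.62 in jejunum LPC low bird 4, below the next bird at 11.30. The average of the 65 genes was 9.48 in jejunum control bird 1, below the next bird at 9.68.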

How the results depend on the processing

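No gene named for a call or a large statistic changed sign under the settings run, and of the 15 medians 2 near 0 did. The ileum LPC low median of 0.01 became -0.09 without the arrays in doubt, -0.08 with the segment score, -0.02 with array weights and -0.002 over every matching probe set, and ran from -0.07 to 0.06 when each bird was left out. The jejunum LPC high median of -0.01 became 0.11 with the 5′ minus 3′ index, 0.01 with centred arrays and 0.001 without the arrays in doubt, and ran from -0.10 to 0.06. Between segments, 34 genes were called with the bird as a fixed block, 34 with the bird as a random replicate block, 32 with no replicate block, and between 29 and 43 when each bird was left out, and the calls without the birds in doubt numbered 46. Here and below, counts stand without the share of all probe sets called in the same fit. They show how far a count depends on the fit, and not whether the subunit genes moved more than others. COX4I1 lost its call without LPC high bird 3 or 5, lysolecithin low bird 1 or 3, or lysolecithin high bird 1 or 3. In jejunum lysolecithin high birds the count of 1 became 0 with a trend and robust prior, with array weights, without the batch term, with the batch as random, in a fit of only these 2 groups, without the arrays in doubt, and with either covariate added after the data were seen (the segment score and the crypt cell marker mean). NDUFS4 then had an adjusted p of 0.057, 0.051, 0.054, 0.058, 0.10, 0.082, 0.15 and 0.077 in that order, and the cause was not tested. The count became 2 (NDUFA9 and NDUFS4) when jejunum and ileum were fitted jointly with a random replicate block for the bird, and ran from 0 to 2 when each bird was left out. It became 1 for the ileum F-test with array weights, 2 for ileum LPC low without the arrays in doubt, and 1 for jejunum high against low with the 5′ minus 3′ index. Leaving out each bird gave 0 to 1 for ileum lysolecithin low against control and against LPC low, COX8A without lysolecithin low bird 2, and 0 in the other diet comparisons. Apart from the fits that left out 1 bird, 196 recomputed counts equalled the main count or stayed within 1.5 times, and 12 moved. Many of the 196 are counts of 0 that stayed 0. In the fits that left out 1 bird, the count moved in 10 of 10 for jejunum lysolecithin high against control. It moved in 1 of 10 each for ileum lysolecithin low against control and against LPC low. With 5 birds a group, the 95% interval of the difference lay within 1.5-fold for between 32 and 62 of the 65 genes, by comparison. For high against low over both products it did so for 50 genes in the jejunum and 64 in the ileum.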
